A study of Mus musculus with 12 samples.

Results

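The effect of losing Sos1 was measured across both states of its paralogue Sos2, by setting 6 arrays of cultures without Sos1 against 6 arrays of cultures with it. All 12 of the 12 arrays of the study entered the comparison. Each was placed by the genotype in its sample title. The 6 arrays without Sos1 were 3 Sos1KO arrays, in which Sos2 is intact, and 3 Sos1/2DKO arrays, in which both genes are deleted. The 6 arrays with Sos1 were 3 arrays of wild-type cells (WT) and 3 Sos2KO arrays. All 4 groups were low-passage primary fibroblasts from C57/BL6 E13.5 embryos, and all of them, WT included, had been kept for 12 days in 4-hydroxytamoxifen before RNA was taken from growing, subconfluent cells. The labels name neither the Cre line nor the embryo of origin, and p-values therefore measure the spread between these cultures.

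SOS1 and SOS2 are exchange factors that swap the GDP of RAS for GTP. A growth factor receptor recruits SOS to the membrane through the adaptor GRB2, where it meets RAS. Active RAS then signals through the RAF, MEK and ERK kinases, which in fibroblasts drive the early genes of the growth response and entry into the cell cycle. E2F transcription factors act on genes of DNA replication, and the DREAM and MMB complexes act through the cell cycle homology region (CHR) on genes of mitosis.

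Genes of DNA replication and mitosis made up the lists with the most falling members, and 4 of their start regions are shown because they hold these elements. For each of the 2 lists, the 3 falling genes with the smallest adjusted p and an entry in the RefSeq table were searched, and the 4 regions that held an element are printed. Each runs from 250 bases before to 50 bases after the RefSeq transcription start on GRCm38.p6 and is read 5′ to 3′ on the strand of the gene. Capitals mark the element. Mcm2 (chr6:88898731-88899030, minus strand) held a CHR word that began 70 bases before the start. Cdt1 (chr8:122567765-122568064, plus strand) held an E2F word 32 bases after it. Aurka (chr2:172370521-172370820, minus strand) held a CHR word 32 bases after the start, and Ttk (chr9:83834439-83834738, plus strand) held one on the opposite strand 7 bases after it. The other genes searched were Mybl2 and Uhrf1. The window of Mybl2 held neither word, and nor did the first of the 2 windows listed for Uhrf1, the only one of them searched here.
Mcm2: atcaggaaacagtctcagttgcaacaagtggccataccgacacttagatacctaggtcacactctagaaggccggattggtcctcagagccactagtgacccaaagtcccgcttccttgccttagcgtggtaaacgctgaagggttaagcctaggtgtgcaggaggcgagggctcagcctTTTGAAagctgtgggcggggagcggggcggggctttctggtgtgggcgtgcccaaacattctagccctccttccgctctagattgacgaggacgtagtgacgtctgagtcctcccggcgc
Cdt1: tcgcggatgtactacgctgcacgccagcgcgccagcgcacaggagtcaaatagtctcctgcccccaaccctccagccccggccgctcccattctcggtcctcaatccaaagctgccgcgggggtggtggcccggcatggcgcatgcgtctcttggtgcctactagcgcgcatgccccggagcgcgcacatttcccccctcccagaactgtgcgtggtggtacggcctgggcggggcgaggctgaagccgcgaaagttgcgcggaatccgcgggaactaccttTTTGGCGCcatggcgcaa
Aurka: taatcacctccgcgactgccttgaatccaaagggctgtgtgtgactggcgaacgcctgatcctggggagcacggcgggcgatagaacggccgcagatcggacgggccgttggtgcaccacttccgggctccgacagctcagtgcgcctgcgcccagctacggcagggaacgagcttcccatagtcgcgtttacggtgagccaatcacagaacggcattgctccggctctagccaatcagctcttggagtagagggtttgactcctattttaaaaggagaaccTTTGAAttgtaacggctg
Ttk: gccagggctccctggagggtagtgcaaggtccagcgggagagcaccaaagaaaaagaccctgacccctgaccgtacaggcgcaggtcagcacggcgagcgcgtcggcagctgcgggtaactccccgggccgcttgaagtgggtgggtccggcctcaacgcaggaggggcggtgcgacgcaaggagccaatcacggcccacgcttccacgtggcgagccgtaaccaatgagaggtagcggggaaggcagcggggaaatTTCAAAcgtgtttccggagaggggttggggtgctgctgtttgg

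The E2F words searched were TTTGGCGC, TTTCGCGC, TTTCCCGC and TTTGCCGC, and the CHR word was TTTGAA, each on both strands. Of 19505 genes, 15691 had a start region, with 19143 windows in all. An E2F word was found in 2.94% of all windows, in 7.53% of the 1129 windows of genes called lower without Sos1, and in 1.78% of the 898 windows of genes called higher. Among the 42 windows of the replication list 33.3% held one, against 8.51% of the 47 windows of the mitosis list. The CHR word was found in 15.3% of all windows, 18.2% of those of falling genes and 13.0% of those of rising genes. It stood in 14.3% of the replication windows and in 68.1% of the mitosis windows, which is 32 of 47. A short word matches many places by sequence alone, so these shares describe the windows and not the binding of a factor.

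Levels are RMA values on the log2 scale, and a change is the level without Sos1 minus the level with it, adjusted for Sos2 status, with its standard error (SE). A gene was called at a limma adjusted p under 0.05 over all 19505 genes. The 75th percentile of the intron control probe sets on each array served as a guide to weak signal. The deposited arrays gave medians between 5.82 and 6.01, and arrays of one genotype correlated at 0.960 to 0.990. The spiked-in labelling control Dap, which is of bacterial origin, was high on 2 of the 6 arrays without Sos1 and on 3 of the 6 with it. Y-linked genes were expressed on 4 arrays without Sos1 and 3 with it. The mean of the 13 measured fibroblast markers ran from 9.48 to 10.24 on arrays with Sos1 and from 9.50 to 10.19 on those without it. Among them, the mean level was 12.1 for the collagen gene Col1a1 and 13.2 for Vim, a mesenchymal intermediate filament. The markers Twist2 and Thy1 fell without Sos1, as given below.

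The deleted gene itself was lower on every array labelled as lacking it. Sos1 stood at 7.31, 7.13 and 7.37 in Sos1KO and at 7.20, 7.96 and 7.39 in Sos1/2DKO. It stood at 8.91, 9.02 and 9.32 in WT and at 8.77, 8.78 and 9.38 in Sos2KO. No array without Sos1 reached the lowest array with it. The change was -1.63 (SE 0.16, 3.11-fold lower, limma adjusted p = 0.000233), and an exact two-sided permutation test over the 924 ways to divide 12 arrays gave p = 0.00216, the smallest it can give. Those divisions ignore Sos2 status. Deletion of Sos1 defines the 2 sides, so both p-values serve only as a check of the labels. Sos2, the paralogue, had a change of 0.07 (95% confidence interval -0.20 to 0.34, limma adjusted p = 0.827). Signal stayed above the weak-signal guide on every array, and the position of the Sos1 probes within the gene was not analysed here.

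Over all genes the loss of Sos1 changed 1971 genes, or 10.1%. Of these, 871 rose (4.47% of all genes) and 1100 fell (5.64%), and 538 differed by at least 2-fold. Centring each array on its median gave 676 higher and 1298 lower. Both counts moved with the fit. The rising count was 552 without WT replicate 1, 575 without Sos2KO replicate 1 and 576 with the high-GC background probes as a covariate. The falling count in those fits was 765, 873 and 1089. Without Sos1KO replicate 2, 651 rose and 769 fell, and without Sos2KO replicate 3, 824 rose and 845 fell. The median change of all genes was 0.01. The 6 and 6 arrays did not overlap for 866 genes (4.44%), and 798 of the called genes were among them, 301 higher and 497 lower. The same model called 1 gene for the loss of Sos2. Dap was high on all Sos2KO arrays (8.31, 8.25 and 6.05) and on Sos1/2DKO replicate 1 (7.67). Among arrays with Sos2 intact it was high on Sos1KO replicate 3 (9.32). The part of Dap in the count for Sos2 was not tested.

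Among the other exchange factors for RAS and its relatives, no gene but Sos1 passed the test, out of 13 measured. Rasgrp3, an exchange factor regulated by diacylglycerol, had a change of 0.65 (SE 0.27, limma adjusted p = 0.159), with levels of 6.86 to 9.10 without Sos1 and 6.76 to 7.53 with it. Rapgef1, an exchange factor for RAP1, had a change of -0.33 (limma adjusted p = 0.147). Without WT replicate 3 or Sos1KO replicate 1, 2 genes of the list were called instead of 1.

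Of the 18 measured components between receptor and ERK, 3 rose (16.7%, against 4.47% of all genes) and 3 fell (16.7%, against 5.64%). The other 12 did not pass, and the median change was 0.03 against 0.01 for all genes. Braf, the RAF kinase that phosphorylates MEK, ran from 8.91 through a median of 9.49 to 9.93 without Sos1 and from 7.78 through 8.36 to 8.71 with it. All 6 arrays without Sos1 lay above all 6 with it (change 1.11, SE 0.18, limma adjusted p = 0.00211). Gab1, a docking protein that couples receptors to SHP2 and PI3-kinase, had a lowest level of 7.06 and a median of 7.68 without Sos1, and a median of 6.48 with it. Its arrays did not overlap either (change 1.25, SE 0.21, 2.39-fold higher, limma adjusted p = 0.00264). Araf, named after its values were seen because it completes the count, had a change of 0.33 with a limma adjusted p of 0.0397. When each of the 12 arrays was left out in turn, its call was lost in 11 fits and kept in that without Sos1/2DKO replicate 3.

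The falling components were 2 RAS-family GTPases and a brake on RAS. Rras2, a GTPase close to RAS, was 8.70 to 10.09 without Sos1 and 9.63 to 10.50 with it (change -0.78, SE 0.19, limma adjusted p = 0.0166). Rasa1, the RAS GTPase-activating protein p120, had medians of 8.58 without Sos1 and 9.26 with it (change -0.84, SE 0.21, limma adjusted p = 0.0195). Both genes overlapped between the sides. Nras stood at 8.27, 8.15 and 8.23 in Sos1KO and at 7.16, 7.59 and 6.99 in Sos1/2DKO, against 8.50, 8.44 and 8.45 in WT and 8.45, 7.85 and 8.62 in Sos2KO (change -0.66, SE 0.18, limma adjusted p = 0.0302). The 3 Sos1/2DKO arrays were the lowest of the 12. Leaving out Sos2KO replicate 1 left 1 of the 3 falling components called, with Rasa1 at a limma adjusted p of 0.0514. Nras was not called without Sos2KO replicate 1 or 3 or without Sos1/2DKO replicate 1 or 3, and its limma adjusted p was at most 0.0749 in those fits.

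**Figure D1:**
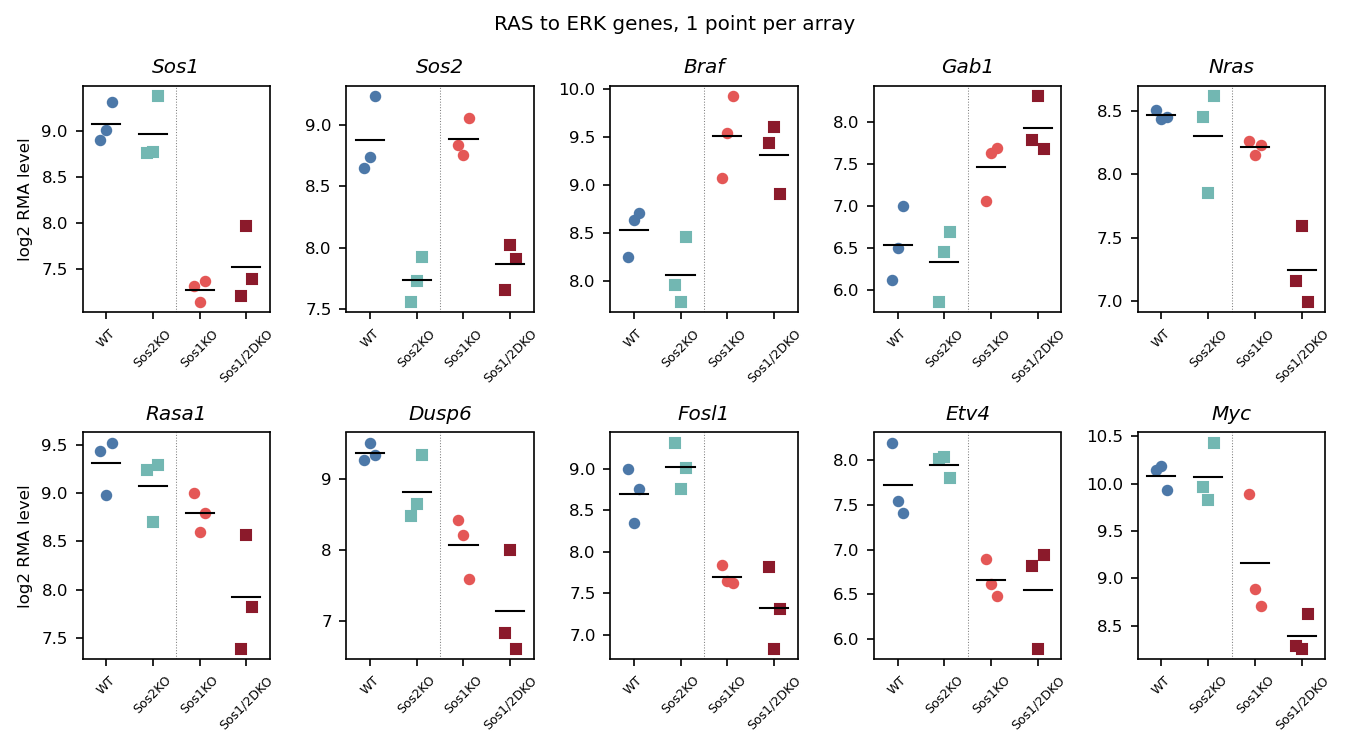
Log2 RMA levels of 10 genes of the RAS to ERK pathway, 1 point per array, with the mean of 3 arrays as a bar. The 2 groups with Sos1 (WT, Sos2KO) stand left of the dotted line and the 2 without it right. Sos1 and the ERK targets Dusp6, Fosl1 and Etv4 lay lower on all 6 arrays without Sos1, and Braf and Gab1 higher.

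Several transcripts that ERK activity is known to raise were lower without Sos1. Of 31 measured targets and feedback genes, 11 fell (35.5%, against 5.64% of all genes) and 1 rose, with a median change of -0.81. Between 10 and 14 fell when 1 array was left out. With Sos2 intact 0 of them were called, where 0.502% of all genes were called lower and 0.118% higher. With Sos2 deleted 9 were called lower and 1 higher, against 2.80% and 3.33% of all genes. In each Sos2 state 24 of the 31 were below 0, with median changes of -0.47 intact and -0.87 deleted. The mean of the list ran from 7.47 to 8.29 without Sos1 and from 7.94 to 8.81 with it. Dusp6, the phosphatase that acts on ERK in the cytoplasm, ran from 6.61 through a median of 7.79 to 8.42 without Sos1 and from 8.48 through 9.30 to 9.51 with it. Its sides did not overlap (change -1.49, SE 0.24, 2.80-fold lower, limma adjusted p = 0.00205). The AP-1 subunit Fosl1 stood at 6.84 to 7.84 without Sos1 and at 8.35 to 9.31 with it (change -1.35, SE 0.19, limma adjusted p = 0.00138). Etv4, an ETS factor of the PEA3 group, stood at 5.89 to 6.94 and 7.41 to 8.19 (change -1.22, SE 0.19). For both genes every array without Sos1 lay under every array with it.

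The growth regulator Myc and Phlda1, a gene induced by growth factors, fell with overlap between the sides. Myc was 9.89, 8.88 and 8.71 in Sos1KO and 8.29, 8.26 and 8.62 in Sos1/2DKO, against 9.83 to 10.43 with Sos1 (change -1.30, SE 0.21, limma adjusted p = 0.00223). Sos1KO replicate 1 was the single array without Sos1 inside the range of the other side. Phlda1 ran from 5.45 to 6.88 without Sos1 and from 6.60 to 7.79 with it (change -1.20, SE 0.19). Fos, the AP-1 gene that is induced within minutes of stimulation, was the 1 member that rose, and it and the next 2 genes are named after their values were seen. Fos stood at 9.01 to 10.62 without Sos1 and at 6.32 to 9.54 with it (change 1.71, SE 0.46, limma adjusted p = 0.0312). Its call was lost without WT replicate 1, Sos1KO replicate 2, Sos2KO replicate 1 or 2, or Sos1/2DKO replicate 2 or 3, where the adjusted p rose to at most 0.0750. Dusp4, a nuclear ERK phosphatase, fell from a median of 8.49 to 6.34 (change -1.98, SE 0.38), and Errfi1, a feedback inhibitor of the EGF receptor, from 9.87 to 7.98 (change -1.73, SE 0.29).

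Most genes of DNA replication and S phase were lower without Sos1. Of 42 measured members, 32 fell (76.2%, against 5.64% of all genes), 0 rose and 10 did not pass over the 12 arrays. Within one Sos2 state, 12 were called lower with Sos2 intact and 15 with Sos2 deleted, against 0.502% and 2.80% of all genes. The median change was -0.84, and 41 of 42 members were below 0. The 6 and 6 arrays did not overlap for 17 of the 42, against 2.69% of all genes that lay lower without overlap. In bulk samples, fewer cycling cells and less of these transcripts in each cell cannot be told apart. Between 27 and 33 members fell when 1 array was left out.

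Gins2, a subunit of the GINS complex of the replicative helicase, was 6.29, 6.43 and 6.39 in Sos1KO, 6.23, 6.54 and 6.24 in Sos1/2DKO, 7.67, 7.27 and 7.51 in WT and 7.34, 7.24 and 7.36 in Sos2KO. All 6 arrays without Sos1 lay lower, and the change was -1.05 (SE 0.10, limma adjusted p = 0.000233). Mcm2, a subunit of the same helicase whose start region is printed above, ran from 7.25 through 7.52 to 7.81 without Sos1 and from 8.45 through 8.78 to 8.96 with it (change -1.22, SE 0.13). Cdt1, which loads that helicase at origins, ran from 6.54 through 6.99 to 7.45 and from 8.04 through 8.33 to 8.50 (change -1.32, SE 0.16, limma adjusted p = 0.000730). Neither gene overlapped. Uhrf1, which maintains DNA methylation at the fork, fell by 1.21 (SE 0.15) on the log2 scale, and Rrm2, the small subunit of ribonucleotide reductase, fell by 1.47 (SE 0.19). Mcm6 and the repressor E2f8 were among the 15 falling genes of largest change that did not overlap, at -1.72 (SE 0.24) and -1.71 (SE 0.22).

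The G2 and mitosis list fell most completely of the 23 pathway lists. Of 51 measured members 45 fell (88.2%, against 5.64% of all genes) and 0 rose. The median change was -1.21, and all 51 were below 0. With Sos2 intact 13 were called lower, and with Sos2 deleted 15, against 0.502% and 2.80% of all genes. Here too 17 of the 51 members did not overlap between the sides, against 2.69% of all genes that lay lower without overlap. With 1 array left out, 35 to 47 were called. Plk1, a kinase of mitotic entry, ran from 6.19 through 8.17 to 8.75 without Sos1 and from 9.33 through 9.83 to 10.31 with it (change -1.97, SE 0.34, 3.92-fold lower, limma adjusted p = 0.00289). The lowest value, 6.19, was that of Sos1/2DKO replicate 3, and the 2 sides stood apart. Aurka, the spindle-pole kinase whose start region is printed above, ran from 5.94 through 7.02 to 7.34 and from 8.14 through 8.53 to 8.83 (change -1.68, SE 0.22, limma adjusted p = 0.00103).

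The spindle checkpoint kinases Bub1b and Ttk and the checkpoint target Cdc20 also stood apart. Bub1b fell by 1.92 (SE 0.28) on the log2 scale, Cdc20 by 1.92 (SE 0.28), and Nek2, a centrosome kinase, by 1.76 (SE 0.24). Ttk was 5.04, 5.37 and 6.15 in Sos1KO and 5.27, 5.33 and 5.21 in Sos1/2DKO, against 6.29 to 7.51 with Sos1 (change -1.44, SE 0.19). It was under the weak-signal guide on 3 of the 6 arrays without Sos1, so the size of its change is uncertain. Incenp, a subunit of the chromosomal passenger complex, fell by 1.19 (SE 0.15), and Mybl2, the MYB factor of the MMB complex, by 1.28 (SE 0.16).

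**Figure D2:**
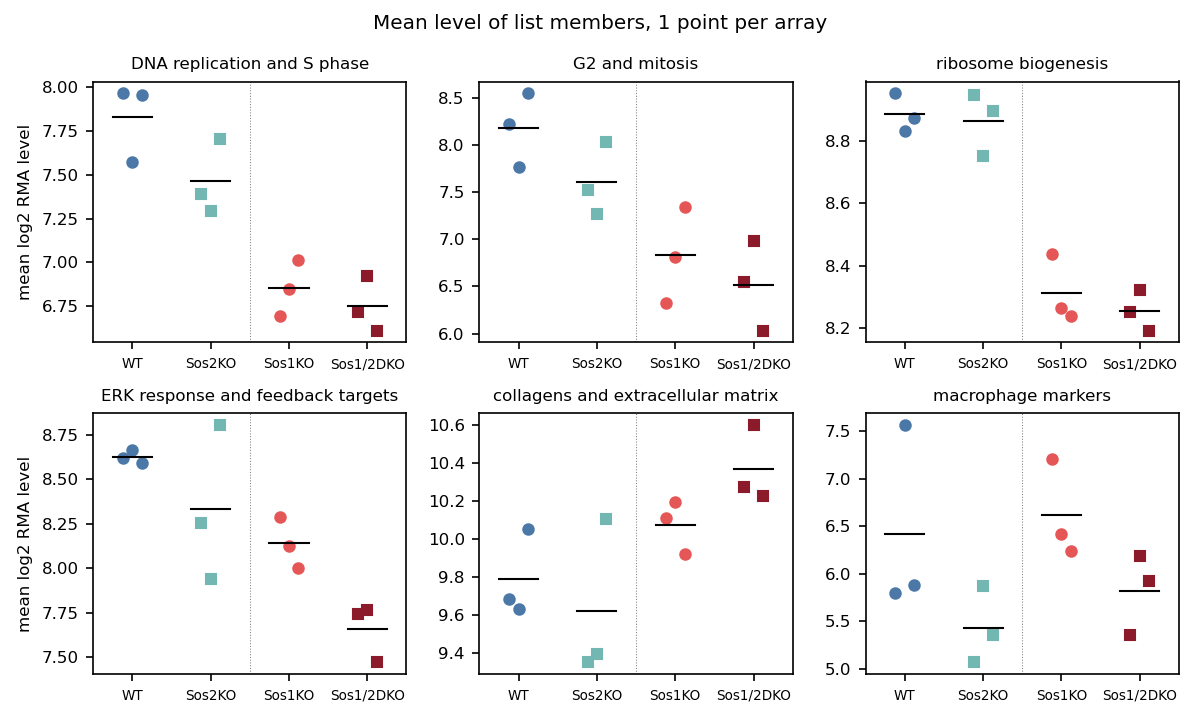
Mean log2 RMA level of the measured members of 6 gene lists on each array, with the mean of 3 arrays as a bar and the groups without Sos1 right of the dotted line. The replication, mitosis and ribosome biogenesis means lay lower on all 6 arrays without Sos1 except for mitosis in Sos1KO replicate 3, at 7.35, which lay above the lowest array with Sos1, at 7.27. The macrophage means overlapped throughout.

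Of 15 measured D cyclins, CDKs and inhibitors, which govern the G1 to S step, 2 fell (13.3%, against 5.64% of all genes) and 1 rose (6.67%, against 4.47%), and the median change was -0.03. Cdk2, the kinase partner of cyclin E, ran from 8.50 to 8.99 without Sos1 and from 8.82 to 9.85 with it (change -0.64, SE 0.15, limma adjusted p = 0.0179). Cdk4 lay at 11.44 to 11.63 without Sos1 and at 11.74 to 11.91 with it, a change of -0.30 (SE 0.09) that did not overlap but whose call was lost in 11 of the 12 fits with 1 array left out, all but that without Sos1/2DKO replicate 1. Rbl2, the p130 pocket protein of the DREAM complex, rose from a median of 7.73 to 8.41 (change 0.66, SE 0.17, limma adjusted p = 0.0224) and was not called without WT replicate 1 (adjusted p = 0.0602). Rb1 had a change of 0.45 (limma adjusted p = 0.0910) and Cdk6 one of -0.50 (adjusted p = 0.187).

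Of 21 measured genes of homologous recombination and the Fanconi pathway, 8 fell (38.1%, against 5.64% of all genes) and 0 rose. The median change was -0.51. Clspn, an adaptor of the replication checkpoint kinase CHK1, ran from 5.28 to 5.68 without Sos1 and from 6.01 to 6.82 with it (change -0.78, SE 0.13, limma adjusted p = 0.00274). The exonuclease gene Exo1 had medians of 4.71 and 5.98 (change -1.27, SE 0.23) with weak signal on all 6 arrays without Sos1. Neither gene overlapped. The count fell to 4 when WT replicate 1 was left out and to 5 without WT replicate 3 or any 1 of the 3 Sos1KO arrays.

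Genes of ribosome biogenesis were lower without Sos1. Of 31 measured members 24 fell (77.4%, against 5.64% of all genes) and 0 rose over the 12 arrays. The median change was -0.65, and 31 of 31 were below 0. Within one Sos2 state, 3 were called lower with Sos2 intact and 14 with Sos2 deleted, against 0.502% and 2.80% of all genes. The sides did not overlap for 17 of the 31 members, against 2.69% of all genes that lay lower without overlap. With 1 array left out, 20 to 24 fell. Utp4, a subunit of the small-subunit processome, was 9.40, 9.19 and 9.22 in Sos1KO, 9.15, 9.38 and 9.26 in Sos1/2DKO, 9.95, 9.89 and 9.83 in WT and 9.86, 9.91 and 9.93 in Sos2KO. The 6 arrays with Sos1 lay within 9.83 to 9.95, and the change was -0.63 (SE 0.09, limma adjusted p = 0.00132). The methyltransferase gene Nop2 ran from 9.01 to 9.67 without Sos1 and from 9.86 to 10.40 with it (change -0.92, SE 0.14). Ddx21, a nucleolar RNA helicase, fell by 0.82 (SE 0.12) on the log2 scale with 9.20 as its highest level without Sos1 and 9.21 as its lowest with it. Dkc1, the pseudouridine synthase dyskerin, fell by 1.35 (SE 0.18), from a median of 6.05 to 4.66, with weak signal on all 6 arrays without Sos1. Nhp2, its partner in the H/ACA particles, fell by 0.71 (SE 0.10).

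Of 20 measured genes of amino acid metabolism and the ATF4 response, 5 fell (25%, against 5.64% of all genes). Another 1 rose (5%, against 4.47%), 14 did not pass, and the median change was -0.36. Psat1, Phgdh and Psph, the 3 enzymes of serine synthesis, fell by 1.14 (SE 0.14), 0.95 (SE 0.15) and 0.77 (SE 0.13) on the log2 scale, each without overlap between the sides. Psat1 ran from 9.65 through 9.74 to 10.28 without Sos1 and from 10.75 through 11.03 to 11.31 with it. Shmt2, the mitochondrial enzyme that draws one-carbon units from serine, ran from 8.16 to 9.16 and from 9.53 to 10.33 (change -1.39, SE 0.19, limma adjusted p = 0.00110). The leucine transporter Slc7a5 fell by 0.77 (limma adjusted p = 0.0253) and lost its call without WT replicate 1 or 3, Sos1KO replicate 2 or 3, or Sos2KO replicate 3. Nupr1, named after its values were seen, had a change of 0.57 (adjusted p = 0.0444) whose call was lost in 10 of the 12 fits with 1 array left out, all but those without WT replicate 2 and Sos1KO replicate 1.

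In glycolysis 4 of 16 genes fell (25%, against 5.64% of all genes), and 7 without Sos1KO replicate 3, with a median change of -0.35. Hk2, an inducible hexokinase, had medians of 7.81 without Sos1 and 8.70 with it (change -0.88, SE 0.16). The pyruvate kinase gene Pkm stood at 11.61 to 12.15 and at 12.17 to 12.48 (change -0.54, SE 0.11, limma adjusted p = 0.00810), apart by a narrow gap. In cholesterol synthesis 5 of 19 genes fell (26.3%, against 5.64% of all genes). Among them were Fdps (change -0.97, SE 0.22, limma adjusted p = 0.0128) and Ebp (change -0.60, SE 0.13), an isomerase of the late steps. The count for cholesterol synthesis was 2 without WT replicate 1, Sos1KO replicate 3, Sos2KO replicate 1 or Sos1/2DKO replicate 3. It was 3 without WT replicate 3, Sos1KO replicate 2, Sos2KO replicate 2 or Sos1/2DKO replicate 2, and it was 8 without Sos1KO replicate 1.

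Of 13 genes of iron uptake and storage only Tfrc fell, which is 7.69% against 5.64% of all genes. The transferrin receptor gene stood at 6.59, 6.27 and 6.25 in Sos1KO and at 4.92, 6.12 and 4.45 in Sos1/2DKO, against 8.43, 8.26 and 8.19 in WT and 7.43, 6.27 and 7.86 in Sos2KO. Sos2KO replicate 2 lay inside the range without Sos1 (change -1.98, SE 0.28, 3.93-fold lower, limma adjusted p = 0.00138). Tfrc was under the weak-signal guide on Sos1/2DKO replicates 1 and 3, where the guide was 5.08 and 5.52. The size of its change is therefore uncertain. Without Sos2KO replicate 1, 2 genes of this list were called lower. Aco1, the iron regulatory protein, had a change of -0.31 (adjusted p = 0.0594).

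**Figure D3:**
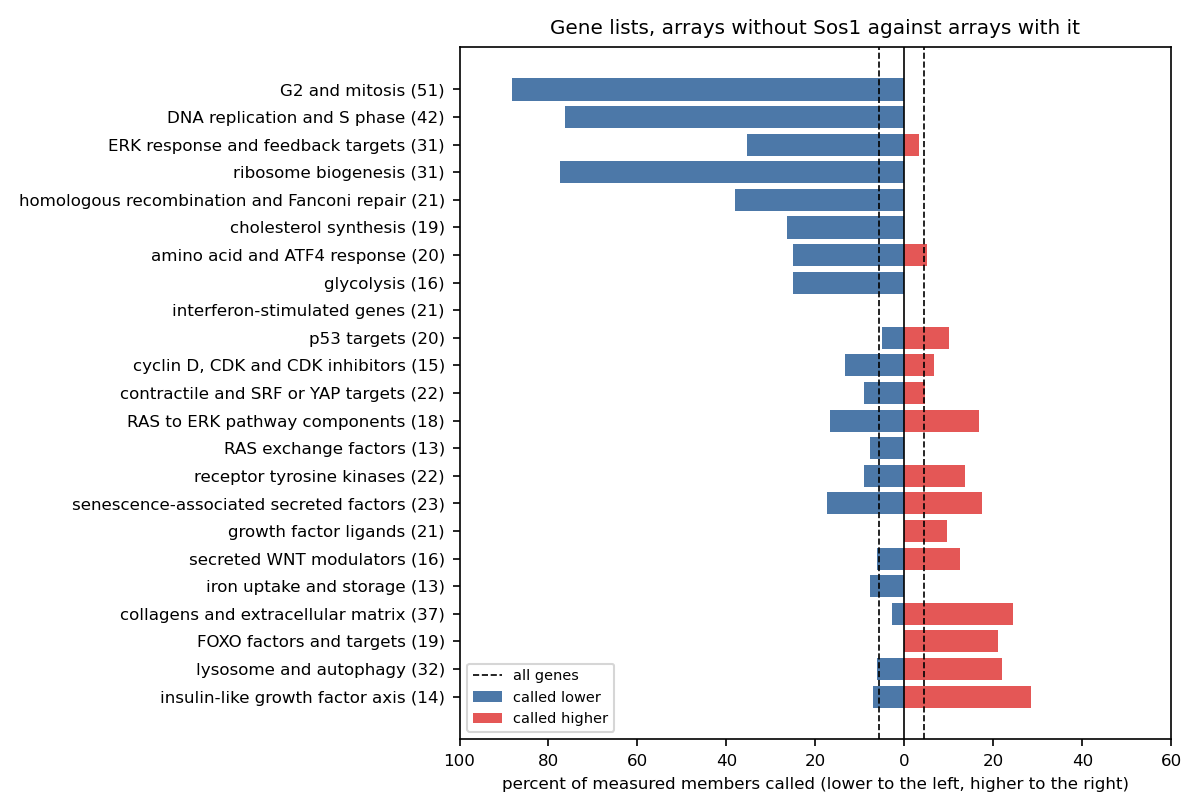
Share of the measured members of each pathway list called lower (left, blue) or higher (right, red) without Sos1, with the number measured in parentheses and lists ordered by median change. Dashed lines mark the shares of all genes, 5.64% lower and 4.47% higher. The mitosis, ribosome biogenesis and replication lists reach 88.2%, 77.4% and 76.2% lower.

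Among the 15 rising genes of largest change without overlap, Scg2, a granin of secretory vesicles, stood at 4.65, 5.98 and 6.36 in Sos1KO and at 5.78, 11.62 and 7.45 in Sos1/2DKO, against 3.66 to 4.20 with Sos1. Sos1/2DKO replicate 2 was far above the rest, and without it the change of 3.01 (SE 0.79, limma adjusted p = 0.0279) was 2.11, and it was 1.27 within the arrays without high Dap. The gene was under the weak-signal guide on all 6 arrays with Sos1, and its call was lost without Sos1KO replicate 3 or any 1 of the 3 Sos2KO arrays (adjusted p at most 0.0683). Chrdl1, a BMP antagonist, had the same weak side and a change of 2.06 (SE 0.54, adjusted p = 0.0267) that lost its call without Sos1KO replicate 2, Sos1/2DKO replicate 1 or any 1 of the Sos2KO arrays.

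The other rising genes of this group were above the weak-signal guide on all arrays or all but 1, except Aldh1a1, which was under it on 4 of the 6 arrays with Sos1. Fgf18, a growth factor of cartilage and bone, ran from 7.97 through a median of 8.94 to 9.54 without Sos1 and from 5.76 through 6.48 to 7.05 with it (change 2.37, SE 0.25, 5.18-fold higher, limma adjusted p = 0.000320). Ehd3, an endocytic recycling ATPase, ran from 8.88 through 10.03 to 10.48 and from 6.81 through 7.33 to 8.34 (change 2.37, SE 0.32). Adgrg2, an adhesion G protein-coupled receptor, ran from 7.36 to 10.03 and from 5.14 to 7.34, nearly touching (change 3.00, SE 0.47). Ptprq, a receptor-type phosphatase, rose by 2.98 (SE 0.38) and the secreted glycoprotein gene Nell2 by 2.77 (SE 0.43). Aldh1a1, which makes retinoic acid, rose by 2.59 (SE 0.40), and Dhrs3, which reduces retinaldehyde back to retinol, by 2.00 (SE 0.34). The sodium, potassium and chloride cotransporter gene Slc12a2 rose by 2.44 (SE 0.35), Npr3, the clearance receptor of natriuretic peptides, by 2.22 (SE 0.32), and Cdo1, which breaks down cysteine, by 2.05 (SE 0.33). Serpinb1a, Lbp and Parm1 rose by 2.30, 2.26 and 2.24.

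The 15 falling genes of largest change without overlap also held genes outside the replication and mitosis lists. Crmp1, a regulator of microtubules and semaphorin signalling, was 7.49, 6.10 and 4.77 in Sos1KO and 5.15, 5.17 and 5.82 in Sos1/2DKO, against 7.56 to 8.57 with Sos1. Sos1KO replicate 1 came close to the lowest array with Sos1 (change -2.25, SE 0.37, 4.77-fold lower, limma adjusted p = 0.00241). Crmp1 was under the weak-signal guide on Sos1KO replicate 3 and Sos1/2DKO replicate 2, where the guide was 5.54 and 5.76. The size of its change is therefore uncertain. Fkbp5, an immunophilin induced by glucocorticoids, ran from 6.21 through 6.58 to 7.38 without Sos1 and from 7.79 through 8.43 to 8.80 with it (change -1.69, SE 0.17, limma adjusted p = 0.000233). Prkg2, a cGMP-dependent kinase, fell by 1.81 (SE 0.22), Ch25h, which makes 25-hydroxycholesterol, by 1.88 (SE 0.28), the protease gene Mcpt8 by 1.82 (SE 0.34), and Pclaf, a PCNA-binding protein, by 1.79 (SE 0.35). The histone genes H2bc18 and H2bc3 fell by 1.96 (SE 0.34) and 1.75 (SE 0.28), and near-identical copies of histone genes can share probe signal, so which copy fell is uncertain.

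**Figure D4:**
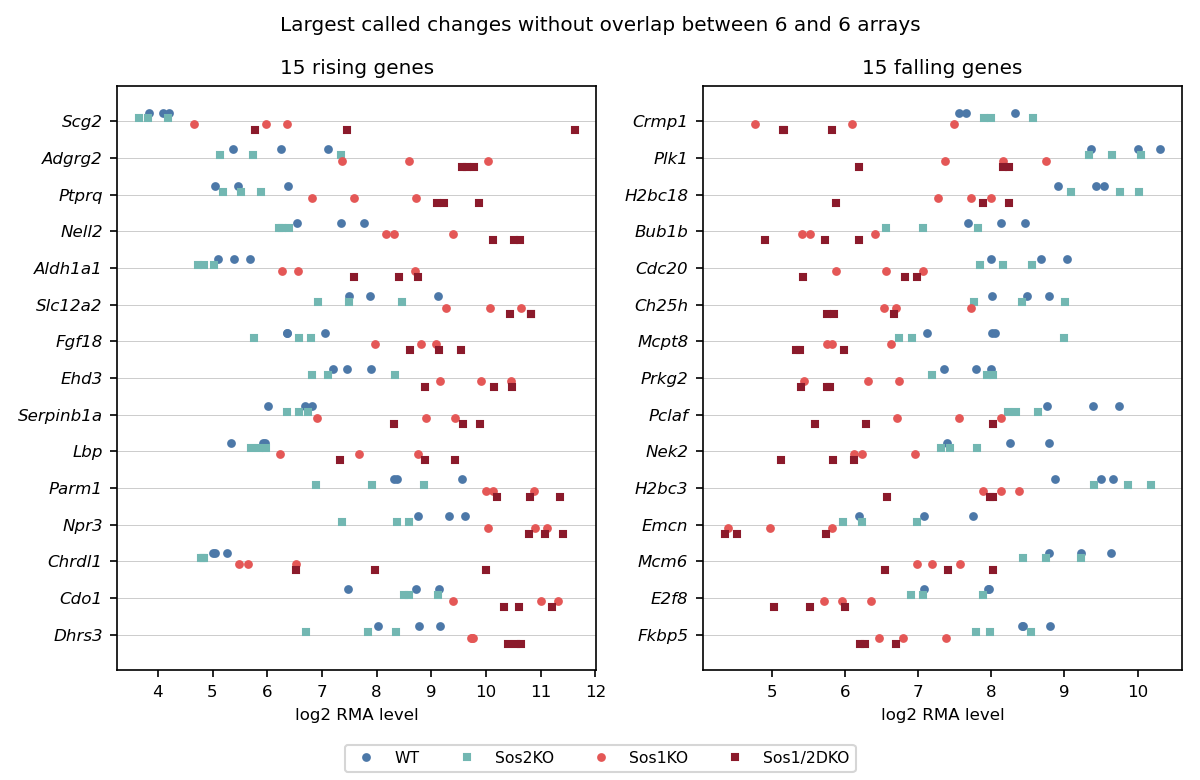
Log2 RMA levels of the 15 rising and the 15 falling genes of largest change among called genes whose 6 and 6 arrays did not overlap, 1 point per array. Genotypes are staggered within each gene, and Scg2 shows 1 Sos1/2DKO array at 11.62 beyond the rest.

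Collagens and other matrix genes rose more often than they fell. Of 37 measured members 9 rose (24.3%, against 4.47% of all genes) and 1 fell, with a median change of 0.22. The count of rising genes was 5 on leaving out Sos1KO replicate 2, Sos2KO replicate 1 or Sos1/2DKO replicate 1. With Sos2 intact 0 members were called, where 0.118% of all genes were called higher. With Sos2 deleted 7 were called higher, against 3.33% of all genes. The list had median changes of 0.10 with Sos2 intact and 0.40 with Sos2 deleted. Abi3bp, a matrix protein of connective tissue, stood at 6.70, 10.46 and 11.15 in Sos1KO and at 11.31, 12.32 and 10.14 in Sos1/2DKO, against 4.87, 4.94 and 8.88 in WT and 5.15, 5.38 and 6.88 in Sos2KO. The sides overlapped through Sos1KO replicate 1 and WT replicate 3. Abi3bp was under the weak-signal guide on WT replicates 1 and 2, where the guide was 5.35 and 5.19, so the size of its change is uncertain. The change was 4.33 (SE 0.86, limma adjusted p = 0.00621), and it was 5.06 without Sos1KO replicate 1 and 5.04 without WT replicate 3. Within the arrays without high Dap it was 2.35.

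The proteoglycan gene Ogn was more even, from 12.38 to 13.12 without Sos1 and from 10.16 to 11.65 with it (change 1.75, SE 0.23, limma adjusted p = 0.00101). Col11a1, a fibril-forming collagen of cartilage, ran from 9.80 to 10.89 and from 7.99 to 9.72 (change 1.45, SE 0.29), and the microfibril genes Fbn2 and Mfap5 rose by 0.92 (SE 0.19) and 1.26 (SE 0.29). Col3a1 had a change of 0.96 (limma adjusted p = 0.0508). Fbln1, the single falling member and named after its values were seen, fell by 0.79 (SE 0.18).

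In the insulin-like growth factor axis 4 of 14 genes rose (28.6%, against 4.47% of all genes) and 1 fell (7.14%, against 5.64%). With Sos2 intact 0 of the 14 were called, where 0.118% of all genes were called higher. With Sos2 deleted 5 were called higher, against 3.33% of all genes. The list had median changes of 0.23 with Sos2 intact and 0.53 with Sos2 deleted. The binding protein gene Igfbp2 was 9.99, 12.78 and 13.41 in Sos1KO and 13.14, 12.90 and 12.86 in Sos1/2DKO, against 8.56 to 10.06 with Sos1. Only Sos1KO replicate 1 lay within the range of the other side (change 3.15, SE 0.49, 8.87-fold higher, limma adjusted p = 0.00184). Igf1 itself ran from 10.25 through 10.81 to 12.26 and from 8.28 through 9.31 to 10.25 (change 1.76, SE 0.35, limma adjusted p = 0.00676). Igfbp3 and Igfbp4 rose by 1.29 and 1.47. Igfbp3 lost its call without WT replicate 1 or Sos2KO replicate 1 or 2, and Igfbp4 without Sos1KO replicate 3, Sos2KO replicate 1 or 2, or Sos1/2DKO replicate 1, so that the count was 2 without Sos2KO replicate 1 and 2 without Sos2KO replicate 2. Igfbp6 fell by 1.18 (adjusted p = 0.0420), a call lost on leaving out any 1 array but WT replicate 2, Sos1KO replicate 1 or Sos1/2DKO replicate 3.

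Receptors and ligands moved in single members. Of 22 receptor tyrosine kinase genes 3 rose (13.6%, against 4.47% of all genes) and 2 fell (9.09%, against 5.64%). Fgfr2 was 7.28, 9.29 and 9.73 in Sos1KO and 9.76, 10.06 and 9.37 in Sos1/2DKO, against 7.14 to 7.85 with Sos1, and Sos1KO replicate 1 stayed at the level of the other side (change 1.86, SE 0.37, limma adjusted p = 0.00617). The hepatocyte growth factor receptor gene Met fell by 0.85 (SE 0.19), and Axl, the receptor for GAS6, by 1.17 (SE 0.21). The count of rising receptors was 5 on leaving out Sos1KO replicate 1 and 1 on leaving out Sos1/2DKO replicate 1. Of 21 growth factor ligands 2 rose (9.52%), Fgf18 and Gas6 (change 0.87, adjusted p = 0.0288). Gas6 lost its call without WT replicate 2, Sos1KO replicate 3, Sos2KO replicate 1 or 2, or Sos1/2DKO replicate 2 or 3. Among 16 secreted modulators of WNT signalling, the R-spondin genes Rspo3 and Rspo2 rose (12.5%) and the inhibitor gene Dkk2 fell (6.25%). Rspo3 ran from 9.39 to 10.96 without Sos1 and from 6.77 to 9.63 with it (change 2.06, SE 0.45, limma adjusted p = 0.0106). Dkk2 ran from 4.66 to 6.44 and from 6.32 to 7.57 (change -1.61, SE 0.31). Its lowest level lay under the weak-signal guide, which was at least 5.08 on the arrays without Sos1. Rspo2 had a change of 2.19 (adjusted p = 0.0250), and its call was lost in 8 of the 12 fits with 1 array left out, all but those without WT replicate 3, Sos1KO replicate 1, Sos2KO replicate 3 and Sos1/2DKO replicate 1.

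Some FOXO and lysosome genes rose. Of 19 FOXO factors and targets 4 rose (21.1%, against 4.47% of all genes) and 0 fell, with a median change of 0.25. With Sos2 intact 0 of the 19 were called, where 0.118% of all genes were called higher. With Sos2 deleted 4 were called higher, against 3.33% of all genes. The list had median changes of 0.14 with Sos2 intact and 0.27 with Sos2 deleted. Pik3ip1, an inhibitor of PI3-kinase, ran from 8.62 to 9.14 without Sos1 and from 7.64 to 8.31 with it (change 0.90, SE 0.13, limma adjusted p = 0.00147). Sesn3 rose by 1.26 (SE 0.25) and Klhl24 by 1.09 (SE 0.22). Foxo1 had a change of 0.93 (adjusted p = 0.0404), a call lost under median centring and on leaving out any 1 array but WT replicate 2, WT replicate 3 or Sos1KO replicate 1. Of 32 lysosome and autophagy genes 7 rose (21.9%, against 4.47% of all genes) and 2 fell (6.25%, against 5.64%). Their median change was 0.25, and 12 rose without Sos2KO replicate 3. Ctsf, a cathepsin, stood at 8.12 to 8.58 without Sos1 and at 6.89 to 7.62 with it (change 1.12, SE 0.13, limma adjusted p = 0.000730), and the cathepsin gene Ctsl at 11.39 to 11.95 and at 10.52 to 11.24 (change 0.75, SE 0.12). Lamp2, a lysosomal membrane protein, and the sialidase gene Neu1 each rose by 0.49.

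In the other lists, 2 of 20 p53 targets rose (10.0%) and 1 fell (5%), against 4.47% and 5.64% of all genes. The death receptor gene Fas rose without overlap, from 6.10 to 7.59 with Sos1 to 7.82 to 8.78 without it (change 1.42, SE 0.22, limma adjusted p = 0.00181). Perp rose by 1.22 (adjusted p = 0.0406), a call lost on leaving out any 1 array but WT replicate 2, Sos1KO replicate 1, Sos2KO replicate 1 or Sos1/2DKO replicate 2, and Plk2 fell by 0.93, a call lost without Sos2KO replicate 3 or Sos1/2DKO replicate 1. Of 23 senescence-associated secreted factors 4 rose (17.4%), all of them of the insulin-like growth factor list, and 4 fell (17.4%). The chemokine gene Ccl2 was one of those, at 7.07 to 8.06 without Sos1 and at 8.39 to 9.06 with it (change -1.14, SE 0.19, limma adjusted p = 0.00232). The count of falling factors was 1 without Sos1KO replicate 2 or Sos2KO replicate 3, and 2 without any 1 WT array, Sos1KO replicate 3, Sos2KO replicate 1 or 2, or Sos1/2DKO replicate 2. Of 22 contractile genes and SRF or YAP targets 2 fell (9.09%) and 1 rose (4.55%), against 5.64% and 4.47% of all genes. Ankrd1 (change -1.81, SE 0.37) and Axl fell, and the ligand gene Tgfb2 rose (change 1.85, SE 0.34). Of 21 interferon-stimulated genes 0 were called by limma, and Irf7, a regulator of interferon genes, had a change of -0.91 (adjusted p = 0.186).

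Markers of cell types other than fibroblasts moved in part. Of 11 chondrocyte markers 3 rose (27.3%, against 4.47% of all genes) and 0 fell. The median change was 1.14, and all 11 were above 0. Hapln1, which links aggrecan to hyaluronan, was 4.71, 8.21 and 7.70 in Sos1KO and 8.74, 8.29 and 5.97 in Sos1/2DKO, against 4.44 to 5.07 with Sos1. Sos1KO replicate 1 stayed at the low level (change 2.51, SE 0.55, limma adjusted p = 0.0110). Hapln1 was under the weak-signal guide on the WT arrays and on Sos2KO replicates 1 and 3, so the size of its change is uncertain. Sox6, a cartilage transcription factor, rose by 1.29 (SE 0.31). Comp rose by 1.98 (adjusted p = 0.0275) and lost its call without WT replicate 1, Sos1KO replicate 2, any 1 Sos2KO array, or Sos1/2DKO replicate 1 or 2. The mean of the list ran from 6.12 to 6.29 with Sos1 and from 6.09 to 8.35 without it, and 7 markers rose on leaving out Sos1KO replicate 1, as did 7 on leaving out Sos1/2DKO replicate 3. The part of these markers in the rise of matrix genes was not tested.

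Of the 13 measured fibroblast markers 2 fell (15.4%, against 5.64% of all genes) and 0 rose. Of the 13, 8 had a change above 0, and the median change was 0.12. Twist2, a mesenchymal transcription factor, had medians of 7.51 without Sos1 and 9.40 with it (change -1.67, SE 0.29, limma adjusted p = 0.00318). The surface marker gene Thy1 was 11.14, 10.21 and 9.86 in Sos1KO and 9.21, 9.64 and 9.50 in Sos1/2DKO, against 10.42 to 11.70 with Sos1 (change -1.33, SE 0.30). Of 17 macrophage markers 0 were called, with means of 5.07 to 7.57 with Sos1 and 5.35 to 7.20 without it, and Lyz2, the most changed of them, had a change of 1.61 (SE 0.55, adjusted p = 0.0867).

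Among the remaining marker lists, epithelial genes fell in 2 of 10 members (20%, against 5.64% of all genes). They were the keratins Krt19 (change -1.60, SE 0.19, limma adjusted p = 0.000730) and Krt18 (change -1.50, SE 0.29). Krt19 was at 4.51 to 5.35 without Sos1, under the weak-signal guide on 5 of 6 arrays, and at 5.86 to 7.21 with it. The endothelial sialomucin gene Emcn fell by 1.73 (SE 0.32), with weak signal on 4 of 6 arrays without Sos1. It was 1 of 11 endothelial markers (9.09%), and the mean of that list was 5.99 to 6.05 with Sos1 and 5.49 to 5.98 without it. Cdh5, the defining cadherin of endothelium, was under the weak-signal guide on all 12 arrays. Leaving out Sos1KO replicate 1 or Sos1/2DKO replicate 3 gave 3 falling endothelial markers, and leaving out Sos2KO replicate 2 gave 2. The skeletal actin gene Acta1 fell by 2.12 (SE 0.46), 1 of 16 muscle markers (6.25%), and 2 fell without Sos1KO replicate 1 or Sos1/2DKO replicate 2. The neuronal tubulin gene Tubb3 fell by 1.07 (SE 0.15), 1 of 11 neural markers (9.09%). Of 10 adipocyte markers 2 rose (20%, against 4.47% of all genes). They were the lipid droplet gene Plin4 (change 1.29, SE 0.18, limma adjusted p = 0.00115) and the adipogenic receptor gene Pparg (change 1.58, adjusted p = 0.0371). The call of Pparg was lost on leaving out any 1 array but WT replicate 3 or Sos1KO replicate 1. Rgs5 was the 1 pericyte marker of 10 (10%) that rose (change 2.51, adjusted p = 0.0257). That call was lost on leaving out any 1 array but WT replicate 2 or 3 or Sos1KO replicate 1 or 3. No osteoblast (0 of 7) or erythroid (0 of 4) marker was called by limma.

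The effect of Sos1 loss was then set side by side in the 2 Sos2 states, which share no array. With Sos2 intact, Sos1KO against WT called 121 genes (0.620%), 23 higher (0.118%) and 98 lower (0.502%). With Sos2 deleted, Sos1/2DKO against Sos2KO called 1197 (6.14%), 650 higher (3.33%) and 547 lower (2.80%), or 443 higher and 758 lower after median centring. The control Dap was high on all 3 Sos2KO arrays and on 1 of the 3 Sos1/2DKO arrays. The high-GC background probes read 8.74, 8.89 and 7.85 in Sos2KO and 8.20, 7.72 and 7.87 in Sos1/2DKO. The part of either in the count with Sos2 deleted was not tested. All 121 genes called with Sos2 intact had the same sign with Sos2 deleted, against 64.0% of all genes. Of the 121, 88 were called in both (72.7% of those with Sos2 intact and 7.35% of those with Sos2 deleted), 72 of the 98 falling and 16 of the 23 rising. No gene was called in opposite directions. In the other direction, 611 of the 650 rising and 525 of the 547 falling genes called with Sos2 deleted had the same sign with Sos2 intact. Across all 19505 genes the 2 sets of changes correlated at r = 0.667, a description over genes that are not independent. The count with Sos2 intact was the less stable, with 0 called by limma when the array left out was WT replicate 1 or 3 or Sos1KO replicate 2 (1425, 1766 and 1527 genes at an unadjusted p under 0.05), 39 without Sos1KO replicate 3 and 192 without Sos1KO replicate 1. With Sos2 deleted the count was 339 without Sos2KO replicate 1 and 443 without Sos2KO replicate 2.

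Of the 1971 genes of the main effect, 978 were called in neither Sos2 state alone. The median SE was 0.139 in the model of 6 against 6 arrays and 0.196 in each Sos2 state. Their signs in the 2 states are largely fixed by the choice of genes on the average of both. Rising genes had a median change of 0.60 with Sos2 intact and 0.92 with Sos2 deleted, and 81.2% of them changed more with Sos2 deleted. Falling genes had medians of -0.65 and -0.74, and 60.4% changed more with Sos2 deleted. The share of all genes that changed more with Sos2 deleted was not counted, so neither percentage is particular to the called genes. By limma at an unadjusted p under 0.05, 2158 of all genes differed with Sos2 intact and 4290 with Sos2 deleted. By list, the mitosis genes had medians of -1.38 and -1.13, the replication genes -1.02 and -0.70, ribosome biogenesis -0.61 and -0.61, the ERK targets -0.47 and -0.87 and the matrix genes 0.10 and 0.40.

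The difference between the Sos2 states was tested as an interaction, and limma called 0 of 19505 genes. At an unadjusted p under 0.05 were 962 of all genes (4.93%) and 173 of the 1971 genes of the main effect (8.78%). Nell2 had the smallest interaction p among the latter. It stood at 6.54, 7.76 and 7.35 in WT and 8.18, 9.41 and 8.32 in Sos1KO, and at 6.39, 6.27 and 6.21 in Sos2KO and 10.13, 10.62 and 10.51 in Sos1/2DKO. Its rise was larger by 2.71 with Sos2 deleted (95% confidence interval 1.70 to 3.73, limma adjusted p = 0.650). The interval takes no account of the choice of Nell2 by its interaction p, so it does not set a difference apart from 0. The other 3 genes of smallest interaction p were Eef1e1, a scaffold of the tRNA synthetase complex, Cybrd1, a ferric reductase, and Megf6. Their changes were -0.12 and -1.07, 0.41 and 1.66, and 0.35 and 1.43 with Sos2 intact and deleted. For Sos1 itself the difference was 0.35 (interval -0.33 to 1.03), and for Dusp6 it was -0.38 (interval -1.41 to 0.66). Intervals this wide hold differences of 2-fold for Dusp6.

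**Figure D5:**
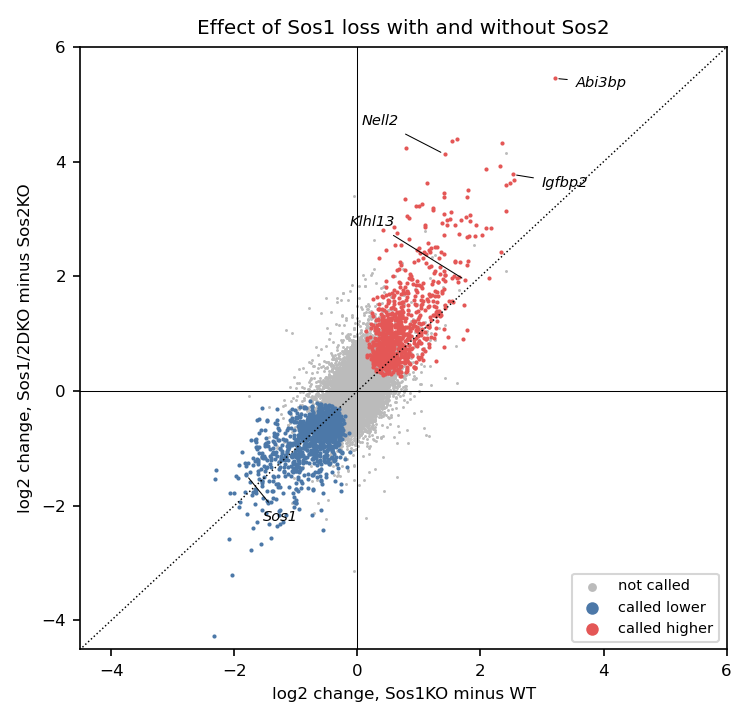
Log2 change on loss of Sos1 with Sos2 intact (horizontal axis, Sos1KO minus WT) and with Sos2 deleted (vertical axis, Sos1/2DKO minus Sos2KO), 1 point per gene, coloured by the call of the main effect. Called genes were chosen on the average of the 2 axes, which places them in the lower left and upper right, and the dotted line marks equal change.

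The genes whose level followed Sos1 most closely over the 12 arrays were taken as a description, since the 2 sides set most of such a likeness. The highest Pearson correlations were those of Cdt1 (0.970), Utp4 (0.956), the linker histone gene H1f1 (0.954), Gins2 (0.953) and Rcl1 (0.944), an endonuclease of ribosomal RNA processing. H1f1 ran from 7.12 to 7.90 without Sos1 and from 8.56 to 8.83 with it. The lowest were those of Rabac1 (-0.933), a regulator of RAB proteins, the peroxisomal membrane gene Pxmp4 (-0.931), Klhl13 (-0.930), a substrate adaptor of a cullin ubiquitin ligase, Acadsb (-0.906), a dehydrogenase of branched-chain acyl-CoA, and Aph1c (-0.902), a subunit of gamma-secretase. Klhl13 was 10.05, 10.57 and 10.15 in Sos1KO and 10.03, 10.08 and 10.26 in Sos1/2DKO, against 8.12, 9.02 and 8.36 in WT and 8.23, 8.22 and 8.12 in Sos2KO. Its 6 arrays without Sos1 all lay above 10 on the log2 scale, and its change of 1.84 (SE 0.15, 3.59-fold higher, limma adjusted p = 0.000119) was nearly equal in the Sos2 states, at 1.76 and 1.93.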

How the data were processed

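RNA of 12 cultures was measured on Affymetrix arrays, 3 for each of 4 genotypes. The deposited values are log2 expression levels that the authors made by RMA in R 3.6.3, per the submitters' processing notes. The genome build is not given in the sources used here. The deposited fold changes matched differences of group means in the value table to within 6.22e-09.

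Of 29129 probe sets, 19572 had 1 gene symbol and 9557 were unnamed. One probe set per gene, that with the highest mean, left 19505 genes. The model had a term for Sos1 loss and a term for Sos2 loss and was fitted with limma 3.58.1 in R 4.3.3 (9 residual degrees of freedom), with Benjamini-Hochberg adjustment over all genes. The 2 Sos2 states and their interaction came from a model of 4 group means. Scripts were tested on simulated data. Tables, motif counts and figures used Python 3.11.15, pandas 2.3.3 and matplotlib 3.10.9. The number of arrays limits the precision. Signal was called weak where a level lay under the 75th percentile over 5222 intron controls, and there the size of a change is uncertain.

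Named genes were Sos1 and Sos2, the 15 rising and 15 falling genes of largest change among called genes without overlap, up to 5 members of each list by adjusted p, the 4 genes of smallest interaction p and the 5 most and least correlated with Sos1. Predicted genes, receptor segments, olfactory and vomeronasal receptors and small RNAs were left out. Any other gene was named after its values were seen. The 23 pathway and 11 cell type lists, and the comparison itself, were chosen with earlier results of these data known. Alternatives covered normalization, filters, priors, weights, blocks, covariates and each array left out.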

Additional observations from a re-analysis of the deposited data

Results flagged for a closer look

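Among 282 sets of 6 arrays, 17 held 1 array that stood apart from the other 5 by Dixon's test, and 14.1 are expected at 1 in 20. Each set pools 2 genotypes. On the side without Sos1, Sos1KO replicate 1 stood apart for Igfbp2 (9.99), Fgfr2 (7.28) and Rspo2 (7.33), each at a low level, and for Ddx21 (9.20) at a high one. Sos1KO replicate 3 was high for Ttk (6.15). Sos1/2DKO replicate 2 was high for Sos1 itself (7.96) and for Fbn2 (8.83). Sos1/2DKO replicate 3 was low for H2bc3 (6.58) and stood apart for Stard4 (6.38), and Sos1/2DKO replicate 1 was low for Met (5.54) and Acadsb (9.38).

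On the side with Sos1, Sos2KO replicate 2 was low for Nras (7.85) and Dkc1 (5.22) and stood apart for Ddr1 (6.60). Sos2KO replicate 1 was high for Aph1c (7.12), WT replicate 2 for Klhl13 (9.02) and WT replicate 3 for Rspo2 (9.51).

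The spiked-in control Dap lies outside the gene comparison. It read 9.32 on Sos1KO replicate 3, 7.67 on Sos1/2DKO replicate 1, and 8.31, 8.25 and 6.05 on Sos2KO replicates 1, 2 and 3, against at most 3.82 on the other arrays. Its part in the gene results was not tested beyond the fits given with the alternatives.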

How the results depend on the processing

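The count of 1971 genes stayed within 1.5 times under 25 alternatives, from 1317 without WT replicate 1 to 2638 with array weights, although its rising part of 871 fell to 552 without WT replicate 1, 575 without Sos2KO replicate 1 and 576 with high-GC background as covariate, and 1181 genes were called in all 12 fits with 1 array left out. It was 131 within the arrays with high Dap (100 of them among the 1971) and 0 by limma within those without (1774 at an unadjusted p under 0.05), both from fewer arrays, against 1799 with a term for Dap. It was 807 at an adjusted p under 0.01, 4860 under 0.25 and 538 at 2-fold or more. With Sos2 intact, 121 became 73 under median centring and 0 to 192 with 1 array left out. With Sos2 deleted, 1197 became 339 to 1660. No called named gene reversed, and 111 of 141 stayed called in all 12 fits. Among uncalled genes, the change of Sos2 was -0.080 within the arrays with high Dap, -0.077 within those without and -0.027 with high-GC background as covariate, and with high Dap Rb1 was -0.023 and Lyz2 -0.094. The cause was not tested.

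Replicate numbers did not mark pairs. Over 18 same-number pairs r ran from -0.35 to 0.30, and 6 exceeded 0.1. With a replicate block the counts were 1768 for the main effect, 65 with Sos2 intact, 1042 with Sos2 deleted and 0 for the interaction by limma (198 at an unadjusted p under 0.05). Weak signal limited 298 called genes on at least 1 array of their lower side.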
